A study of Mus musculus with 4 samples.

Results

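The T cell receptor complex and its coreceptors were described here as 10 genes, Cd3d, Cd3e, Cd3g, Cd247, Cd4, Cd8a, Cd8b1, Lck, Zap70 and Lat. They were taken by exact symbol from an expression table of 17335 genes in gonadal white adipose tissue (gWAT), and all 10 were found. The mice were female and ate a high-fat diet (HFD) for 18 weeks. Those of the fl/fl group carried the floxed Dnmt1 allele (Dnmt1 fl/fl) with the gene intact. AD1KO mice, their littermates, carried the same floxed allele and a Cre driven by the adiponectin promoter, which is active in mature adipocytes, so Dnmt1 was removed from adipocytes and not by design from T cells. Each genotype is represented by a single sequencing library, made from the combined RNA of 4 mice, so the spread between animals cannot be seen and no test between the genotypes was possible. The tissue is a mixture of adipocytes, stromal cells and leukocytes.

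A T cell recognises antigen with a receptor of alpha and beta chains that has no signalling tail of its own. The receptor is carried to the surface with the CD3 gamma, delta and epsilon chains and the zeta chain, whose tails hold the tyrosines that are phosphorylated when antigen binds. CD4 and CD8 bind the MHC molecule on the presenting cell and bring the kinase Lck, which phosphorylates those tails. Zap70 docks there and phosphorylates Lat, the scaffold on which the rest of the signal is built. CD8+ T cells are known to accumulate in fat during obesity, and regulatory CD4+ T cells are known residents of lean visceral fat.

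The 3 CD3 genes lie together, and the bases before their start sites are shown because these genes sit side by side. Their ratios, given below, could not be parted from each other, but neither could those of any other members. In the mm9 build, Cd3g (minus strand), Cd3d (plus strand) and Cd3e (minus strand) span 40019 bases of chromosome 9, from 44777655 to 44817673. Cd3g and Cd3d are transcribed away from each other, with 1361 bases between them, and 11690 bases part Cd3d from Cd3e. The sequences are the 250 bases before each RefSeq start of the GRCm38.p6 build, and each matched 1 place in mm9. Capitals mark the letters of 5 motifs searched on both strands, namely TGTGGT (RUNX), GGAAGT (ETS), CAGGTG (an E-box), AGATAA for GATA factors, and the start-site box TATAAA. No match overlapped another.
Cd3g, chr9:44788515-44788764, minus strand: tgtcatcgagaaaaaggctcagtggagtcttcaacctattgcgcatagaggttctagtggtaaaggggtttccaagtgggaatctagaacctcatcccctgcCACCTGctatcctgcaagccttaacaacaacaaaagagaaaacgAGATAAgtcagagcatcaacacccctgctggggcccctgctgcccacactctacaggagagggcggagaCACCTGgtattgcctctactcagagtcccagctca
Cd3d, chr9:44789619-44789868, plus strand: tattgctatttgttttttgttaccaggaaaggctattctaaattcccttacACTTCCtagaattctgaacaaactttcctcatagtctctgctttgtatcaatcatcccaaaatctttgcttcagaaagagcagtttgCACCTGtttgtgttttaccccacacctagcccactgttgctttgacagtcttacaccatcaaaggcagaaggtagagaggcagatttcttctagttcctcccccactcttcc
Cd3e, chr9:44817695-44817944, minus strand: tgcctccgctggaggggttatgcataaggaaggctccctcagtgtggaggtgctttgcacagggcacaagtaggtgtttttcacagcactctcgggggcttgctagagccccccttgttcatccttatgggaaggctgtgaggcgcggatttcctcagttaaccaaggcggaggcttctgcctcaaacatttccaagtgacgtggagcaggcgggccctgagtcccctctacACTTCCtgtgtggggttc
Cd3d held an ETS and an E-box match, Cd3g 1 match for GATA factors and a pair of E-box matches, and Cd3e an ETS match. Windows were at hand for 8 members, 11 windows in all, since Lck had 2 and Zap70 had 3 starts. Cd4 and Cd8b1 had none. The ETS letters stood in 6 of the 11 windows and in 19.7% of 32851 windows of all genes. The E-box letters also stood in 6, against 17.2% of all windows, those of RUNX in 2 against 14.1%, of GATA factors in 1 against 9.99%, and the start-site box in 0 against 12.4%. The 11 windows held 0 to 7 CpG sites with a median of 3, and the median of all windows was 6. A match of letters is a description of the window and not a bound site.

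Each of the 10 members was lower in the AD1KO library than in the fl/fl library, by 2.75 to 3.72 times. The FPKM values, in which fragments are scaled to transcript length and to library size, lay between 4.66 and 25.8 in fl/fl and between 1.42 and 7.12 in AD1KO. For each of the 10 genes the 95% counting intervals of the levels in the libraries did not overlap. Ratios are given on the log2 scale as AD1KO over fl/fl, with 0.01 FPKM added to both levels, and a gene was called lower at -0.5 or below and higher at 0.5 or above. By this threshold all 10 members were lower and 0 were higher. Of the 15839 genes that reached 0.1 FPKM in either library, 19.1% were lower and 14.3% higher. All 10 were also at or below -1, as were 8.95% of all genes. The whole counting interval lay below -0.5 for all 10, and for 8.28% of all genes. Each member passed the filter in both libraries. The median log2 ratio of the members was -1.67, beside -0.04 over all 15839 genes. A ratio as low as that of the member nearest 0 or lower was held by 717 genes, 4.53% of them.

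**Figure D1:**
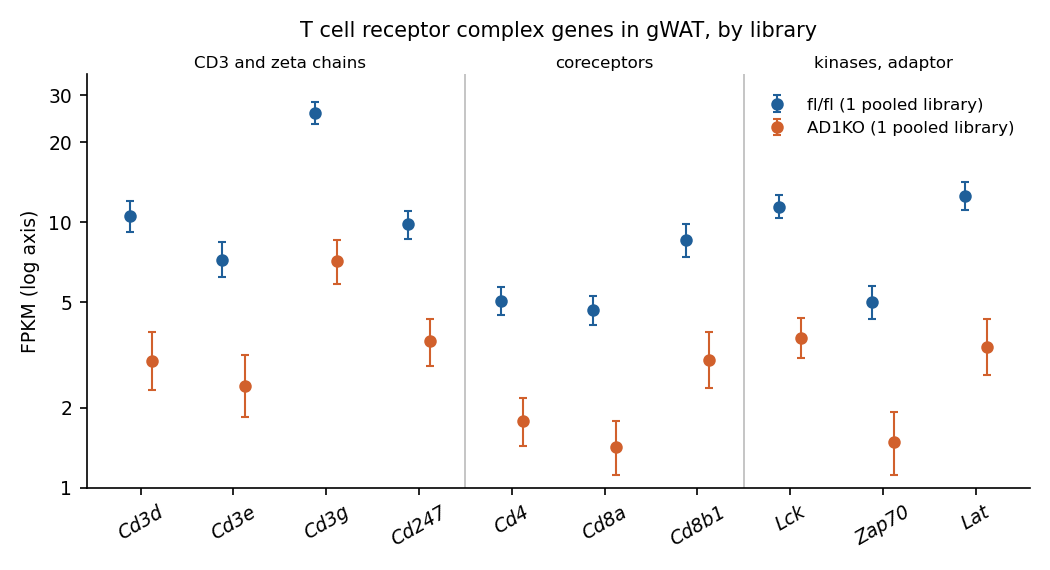
FPKM on a log axis of the 10 members in the fl/fl library (blue) and the AD1KO library (orange), each a pool of 4 mice. Points are the deposited values and bars the exact 95% Poisson interval of the estimated reads. Every orange point is below its blue point, and Cd3g is the highest gene in both libraries.

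The reads behind these values were estimated from the steps of low FPKM values, at a depth of 17540000 reads for fl/fl and 17375000 for AD1KO. Per member there were 168 to 411 reads in fl/fl and 55 to 130 in AD1KO, 2632 and 818 over all 10. Intervals are exact Clopper-Pearson intervals on these reads and cover counting error only. Reads carry no molecular identifiers in the table. The targeted gene Dnmt1 had a level of 6.99 FPKM in the fl/fl library against 3.33 FPKM (log2 ratio -1.07, interval -1.27 to -0.87), and the lower level was in the library labelled AD1KO. The Dnmt1 level too is that of whole tissue, and the part of adipocytes in it was not tested. In whole tissue, fewer T cells and less of each RNA per T cell cannot be told apart.

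**Figure D2:**
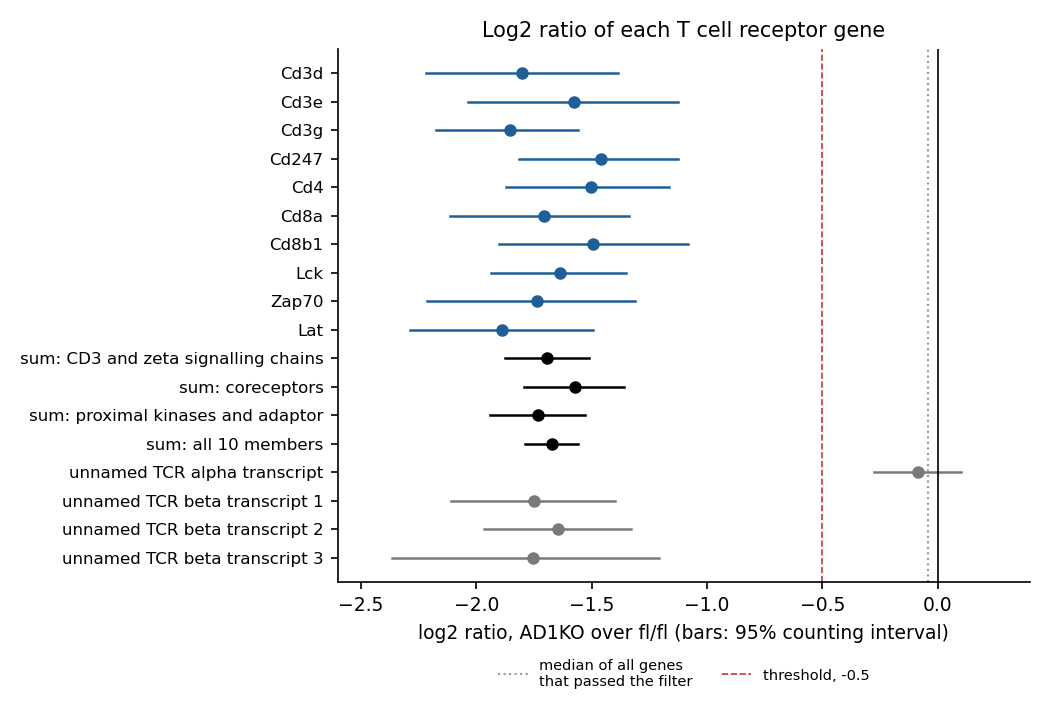
Log2 ratio of AD1KO over fl/fl for the 10 members (blue), for summed reads (black) and for 4 unnamed T cell receptor transcripts (grey). Bars are 95% counting intervals, the dotted line is the median of all genes that passed the filter, and the dashed line is the threshold. The intervals of the 10 members overlap each other and lie below -1, while the alpha transcript lies at -0.09.

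The CD3 and zeta chains are the signalling part of the receptor. Cd3g (gene 12502), which encodes the gamma chain, had 25.8 FPKM in the fl/fl library and 7.12 in the AD1KO library, from about 411 and 112 reads. The log2 ratio was -1.85 (interval -2.18 to -1.56), the lowest of the 4 chains. Cd3d (gene 12500, chromosome 9, 44789876 to 44795135), for the delta chain, had 10.5 and 3.01 FPKM in the same order, a log2 ratio of -1.80 (interval -2.22 to -1.39). Its neighbour Cd3e (gene 12501, 44806826 to 44817673 on the same chromosome) encodes the epsilon chain, which pairs with both gamma and delta. Cd3e had 7.23 and 2.42 FPKM, a log2 ratio of -1.58 (interval -2.03 to -1.13). Cd247 (gene 12503, chromosome 1, 167718812 to 167807407, plus strand) encodes the zeta chain and was at 9.80 and 3.56 FPKM. Its log2 ratio of -1.46 (interval -1.81 to -1.12) was the nearest to 0 among the 10 members. The table has 1 value per gene, so the isoforms of Cd247 were not separated. Its locus overlaps Pou2f1 on the opposite strand, which was at 0.74 FPKM in both libraries.

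Summed over the 4 chains, 1073 reads in fl/fl stood against 329 in AD1KO, a log2 ratio of -1.69 (interval -1.87 to -1.51). Of the FPKM of the 4 chains, Cd3g made up 48.3% in fl/fl and 44.2% in AD1KO. Cd247 made up 18.4% and 22.1%, Cd3d 19.7% and 18.7%, and Cd3e 13.6% and 15.02%. The difference between Cd3g and Cd247 in log2 ratio was -0.39, and its interval from -0.87 to 0.07 held 0, so a change in the make-up of the chains was not detectable at this depth. The genes next to the cluster were not lower. Ube4a, 3972 bases from Cd3g on the side of lower coordinates, was at 8.08 and 8.90 FPKM. Mpzl2, 32835 bases from Cd3e on the side of higher coordinates, was at 0.38 and 0.81 FPKM, higher in AD1KO.

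The coreceptors separate helper and regulatory T cells, which carry CD4, from cytotoxic T cells, which carry CD8. Cd4 (gene 12504, chromosome 6, 124814710 to 124838239, minus strand) had 5.06 FPKM in the fl/fl library and 1.78 in the AD1KO library. Its log2 ratio was -1.50 (interval -1.87 to -1.17), from about 265 and 92 reads. Cd8a (gene 12525, chromosome 6, 71323421 to 71329165, plus strand), the alpha chain of CD8, was at 4.66 and 1.42 FPKM. Its log2 ratio was -1.71 (interval -2.11 to -1.34), from about 246 and 74 reads. Cd8b1 (gene 12526, chromosome 6, 71272830 to 71287471, plus strand) encodes the beta chain, which pairs with alpha on most cytotoxic T cells. Cd8b1 had 8.56 and 3.03 FPKM, a log2 ratio of -1.50 (interval -1.90 to -1.08). Smyd1, a muscle gene 603 bases before Cd8b1, was higher in AD1KO, at 0.49 and 1.93 FPKM. On the other side Rmnd5a was at 11.5 and 12.9 FPKM.

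Genes of the CD4 and of the CD8 side of the T cell pool were both lower. The level of Cd4 divided by that of Cd8a was 1.09 in fl/fl and 1.25 in AD1KO. Their log2 ratios differed by 0.21 with an interval from -0.32 to 0.74, so a shift between them of this size was not detectable. Between Cd4 and Cd8b1 the difference was -0.01 (interval -0.57 to 0.52). Between Cd8a and Cd8b1 it was -0.21 (interval -0.80 to 0.34). Cd8a was at 0.54 of the level of Cd8b1 in fl/fl and 0.47 in AD1KO, per length of transcript. Summed over both CD8 genes the log2 ratio was -1.61 (interval -1.89 to -1.34).

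The 3 members inside the cell took the first steps after the receptor. Lck (gene 16818, chromosome 4, 129225588 to 129250885, minus strand), the kinase bound to CD4 and CD8, was at 11.4 and 3.67 FPKM. Its log2 ratio was -1.64 (interval -1.94 to -1.35), from about 409 and 130 reads. Zap70 (gene 22637, chromosome 1, 36818695 to 36839663, plus strand), the kinase that docks on phosphorylated CD3 and zeta tails, was at 4.99 and 1.49 FPKM. Its log2 ratio was -1.74 (interval -2.21 to -1.31). Lat (gene 16797, chromosome 7, 133507346 to 133513057, minus strand), the adaptor that Zap70 phosphorylates, was at 12.6 and 3.38 FPKM. Its log2 ratio of -1.89 (interval -2.29 to -1.49) was the lowest of the 10 members. Summed, the 3 genes had 853 and 254 reads and a log2 ratio of -1.73 (interval -1.94 to -1.53), beside -1.57 (interval -1.79 to -1.36) for the 3 coreceptors.

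The depth did not part the ratios of the 10 members from each other. The difference of log2 ratios was computed for all 45 pairs with an exact conditional 95% interval, and 45 of the 45 intervals held 0. For the members farthest apart, Cd247 and Lat, the difference was 0.43 with an interval from -0.11 to 0.95. Over the 10 members the summed reads gave a log2 ratio of -1.67 (interval -1.79 to -1.56).

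The order of the levels was similar in both libraries. Cd3g was the highest in each, and its counting interval lay above that of the next gene, Lat in fl/fl and Lck in AD1KO. In fl/fl, Lat, Lck, Cd3d, Cd247, Cd8b1 and Cd3e followed, and each of these overlapped its neighbour in the order. Cd3e at 7.23 FPKM lay above Cd4 at 5.06 FPKM in fl/fl with no overlap, and Cd4, Zap70 and Cd8a could not be parted. Yet Cd4 had more reads than Cd3e there, about 265 against 168, over a length of 3095 bases against 1436. Their order thus rests on the gene lengths used, and the intervals do not cover an error in those lengths. In AD1KO no neighbours below Cd3g could be parted, from Lck at 3.67 down to Cd8a at 1.42 FPKM. Cd4, Zap70 and Cd8a were the lowest 3 in both libraries and have the greatest lengths of the members. Cd3g has the smallest, at 1023 bases.

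The receptor's own alpha and beta chains, and the gamma and delta chains of gamma-delta T cells, were sought by 18 symbols. Of these symbols 0 are in the table. Transcripts without a symbol were therefore looked up where their protein annotation reads T-cell receptor alpha, beta, gamma or delta. This choice was made after their values were seen. There were 4, all annotated as alpha or beta, with no positions in the table and with names that rest on similarity alone. The 3 annotated as beta chain were at 24.9, 28.4 and 8.12 FPKM in fl/fl and at 7.38, 9.08 and 2.40 FPKM in AD1KO. They are likely to share reads of the same locus, and summed they had about 756 and 230 reads and a log2 ratio of -1.70 (interval -1.92 to -1.49). The 1 annotated as alpha chain had 24.5 FPKM in the fl/fl library and 23.1 in the AD1KO library. Its log2 ratio was -0.09 (interval -0.28 to 0.10), from about 476 and 444 reads, so its interval lay above those of the 10 members and of the beta transcripts. Whether this transcript comes from T cells was not tested.

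The genes around the receptor were described from lists of known T cell genes, in which no test was run either. All 12 genes listed as costimulatory and adhesion receptors of T cells were lower. Their median log2 ratio was -2.05, with a range from -3.10 to -0.76. The list also holds the inhibitory receptors Ctla4 and Pdcd1, and the lowest value, that of Ctla4, rests on about 63 and 7 reads. Among the most abundant, Cd2, an adhesion receptor, had 20.6 and 10.3 FPKM (interval of the log2 ratio -1.27 to -0.75) and Cd7 one of -2.37 (interval -2.96 to -1.82). Slamf6 was at -1.67, and Tnfrsf4, the receptor OX40 of activated T cells, was at -1.88. Of 21 genes that carry the signal on from Lat, 13 were lower, 0 higher and 8 between, with a median of -0.84. Fyb, an adaptor of haematopoietic cells, was at 20.8 and 8.38 FPKM (log2 ratio -1.31). Nck1, an adaptor of many cell types, was at 23.2 and 23.8 FPKM. Prkcq and Themis, chosen once their values were known, were also between the thresholds. Their log2 ratios were -0.09 (interval -0.41 to 0.24) and -0.30 (interval -0.80 to 0.22). Of 21 regulators of the signal, 16 were lower, 0 higher and 5 between, with a median of -1.01. Ptpn6, a phosphatase of leukocytes, was at 59.5 and 20.2 FPKM, and Unc119, found in many tissues, was at 86.7 and 111 FPKM. Several genes of these lists are expressed by other cells of fat, and the part of those cells in the values was not tested. Among all 53 further genes that the table annotates with the T cell receptor signalling pathway, a term chosen after the data were seen, 21 were lower and 1 was higher, with a median of -0.32.

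Of 13 transcription factors of T cells, 11 were lower, 0 higher and 2 between, with a median log2 ratio of -0.81. Tcf7 had a log2 ratio of -0.59 (interval -0.86 to -0.32), nearer to 0 than any member. Zbtb7b, the factor of the CD4 lineage, was at 32.95 and 36.7 FPKM, far above Cd4 in both libraries. Foxp3, the factor of regulatory T cells, was chosen once its values were known and had about 80 and 19 reads, a log2 ratio of -2.02 (interval -2.87 to -1.32). Among 8 genes of naive and memory T cells, 6 were lower and 0 higher, with a median of -0.91. Il7r was at 15.9 and 8.08 FPKM. S1pr1, which endothelial cells also express, was at 13.3 and 14.96 FPKM. Of 6 genes of developing thymocytes 4 are in the table and 3 passed the filter, with 1 lower and 0 higher. Ptcra had about 2 reads and Dntt about 3 in each library. The 1 that was lower, Themis2, at 27.3 and 8.78 FPKM, is known from B cells and macrophages.

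**Figure D3:**
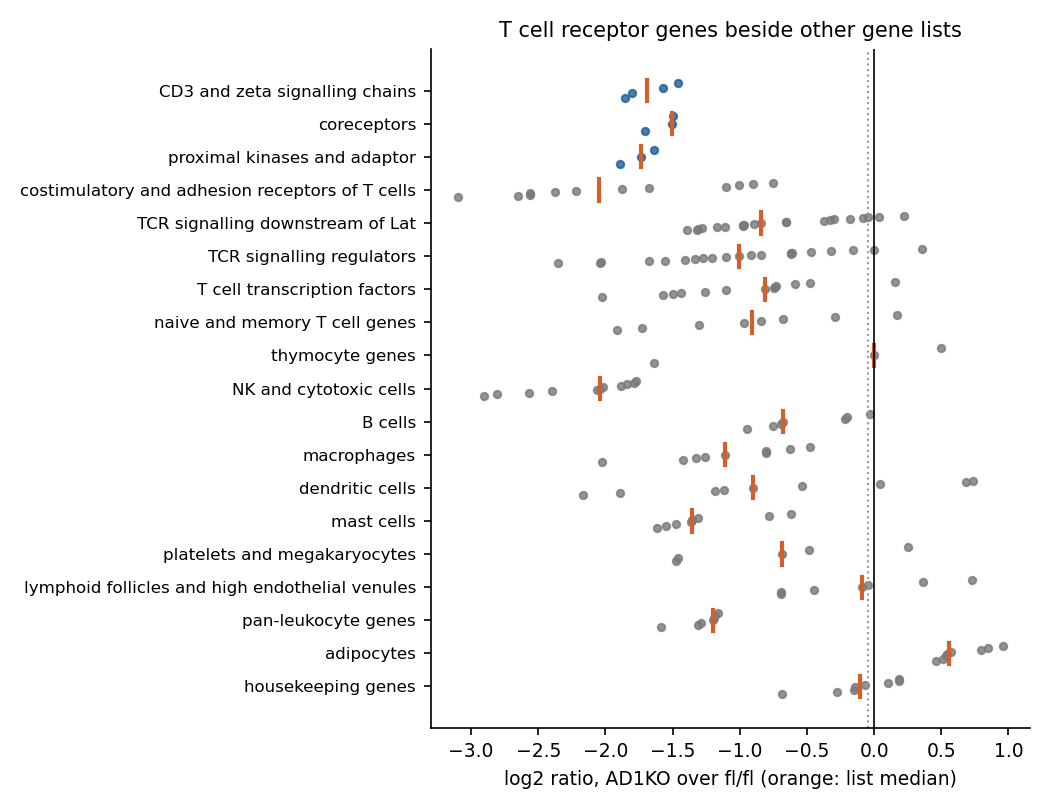
Log2 ratio of AD1KO over fl/fl of each gene that passed the filter, by list, with the list median in orange. The members (blue) lie between -1.89 and -1.46, the costimulatory and cytotoxic lists have medians of -2.05 and -2.04, and adipocyte genes lie above 0.

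Markers of other leukocytes moved with the members, and their part in the result was not tested. Lck, Zap70 and Cd247 are also expressed by NK cells, and all 11 NK and cytotoxic genes were lower, with a median of -2.04 and a range from -2.91 to -1.77. Their FPKM summed to 259 in fl/fl and 53.3 in AD1KO, and most of the sum was Ccl5 in both libraries. Cytotoxic T cells share most of these genes. Some dendritic cells carry CD8 alpha or CD4, and of 9 dendritic genes 6 were lower and 2 higher, with summed FPKM of 27.5 and 15.1. Clec9a, of a type of dendritic cell that can carry CD8 alpha, was at 5.51 and 1.22 FPKM, the lowest log2 ratio of that list. Zbtb46 was at 2.41 and 2.49 FPKM, and Cd209a was higher, at 2.23 and 3.59 FPKM. Mast cells and platelets use Lat, and all 8 mast cell genes were lower, with a median of -1.36 and sums of 381 and 140 FPKM. Of 5 platelet genes 3 were lower and 0 higher, with sums of 196 and 123 FPKM, nearly all of it Pf4. Among the lower ones, Gp1ba had about 20 and 7 reads. Gp9, named for its few reads, had about 3 and 1, and its interval from -7.29 to 2.07 held 0. Macrophage genes were lower in 8 of 9, with a median of -1.11 and sums of 2137 and 909 FPKM. No gene of these lists that passed the filter was at 0 in either library.

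The 7 genes that most leukocytes share were lower in all 7, with a median log2 ratio of -1.20 and a range from -1.59 to -1.16. The interval of the members' summed reads, -1.79 to -1.56, lay below the ratio of 6 of the 7, and the exception was Cd52 at -1.59. B cell genes were lower in 4 of 7, with a median of -0.68 and a lowest value of -0.95. Genes of lymphoid follicles and high endothelial venules had a median of -0.09, with 2 of 7 lower and 1 higher, and Cxcl13 was at 14.4 and 13.5 FPKM. Adipocyte genes were higher in 7 of 8 and lower in 0, with a median of 0.56, and their summed level was 17145 FPKM in fl/fl and 26110 in AD1KO. FPKM is a share of each library, so the levels of different cell types are not independent of each other. The housekeeping list had a median of -0.11, with 7 of 8 genes between the thresholds and Actb lower (log2 ratio -0.69).

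**Figure D4:**
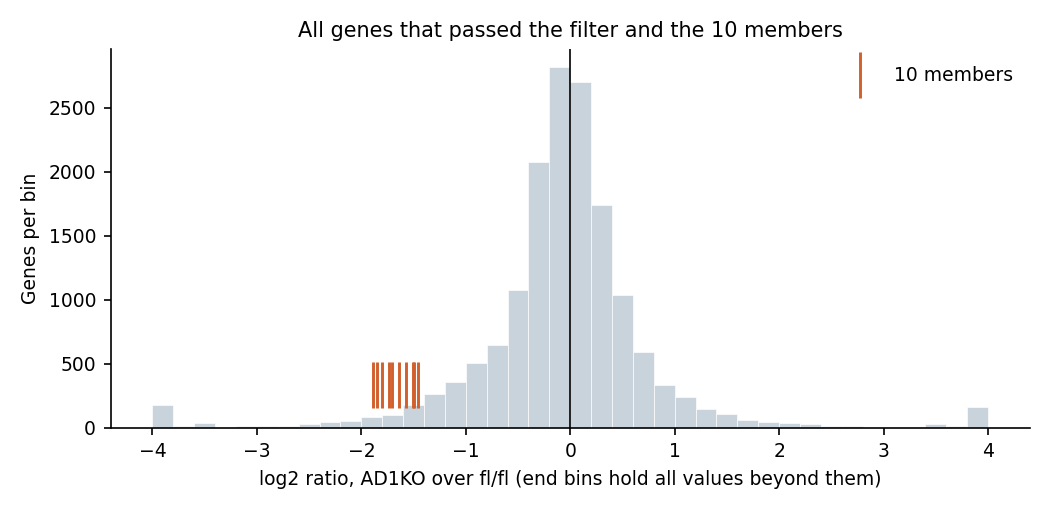
Number of genes per bin of log2 ratio (AD1KO over fl/fl) for the 15839 genes that passed the filter, in bins of 0.2, with the 10 members as orange marks. The members lie between -1.89 and -1.46, on the lower flank of the distribution, where 4.53% of genes are at or below -1.46.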

How the data were processed

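RNA of 4 mice per group was pooled before library preparation, and poly(A) mRNA was sequenced by a service provider, which aligned clean reads to mouse mm9. The aligner and the quantification program are not given in the sources used here. The authors deposited 1 table with gene length and FPKM for both libraries, in which 0 is written as 0.01. Its columns of fold change, P-value and FDR are the authors' own comparison and were not used. Columns were matched to groups through the library names. The 2 RRBS samples were not analysed here.

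Values of 0.01 were set to 0, and the log2 ratio was taken after adding 0.01 FPKM, which understates changes of low genes. Depth and a length correction of 114 bases were those that brought the implied reads of low values of genes under 700 bases nearest to whole numbers. In genes of 701 to 1200 bases, which the estimate did not use, 77.2% of 426 values in fl/fl and 74.3% of 420 in AD1KO lay within 0.1 of a whole read, beside 26.6% in fl/fl with the depth raised by 7%. The estimates of depth, length correction and reads, the call at 0.5 and the interval of a single gene's ratio were checked on simulated data. With 1 library per group there is no test, and counting intervals cover neither animals nor pooling.

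The members and the 20 gene lists were chosen with earlier results of these data known. The genes named are the members, Dnmt1 and, in other lists, those among the 4 highest in fl/fl, except where the text says otherwise or the gene is a neighbour of a member. Alternatives were 3 other scalings, 2 pseudocounts, 2 filters, a threshold of 1 and the whole interval past 0.5. Estimated reads without a pseudocount were added after the data were seen. Positions are from GENCODE for mm9, and promoter sequences from RefSeq. Scripts ran in Python 3.11.15 with pandas 2.3.3, Matplotlib 3.10.9, SciPy 1.17.1 and NumPy 2.4.6.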

Additional observations from a re-analysis of the deposited data

How the results depend on the processing

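No paired analysis was possible because each group is a single library of pooled RNA. All 10 members were lower and 0 higher under each of the 9 alternatives named above. The median log2 ratio of the members, -1.67, was -1.27 with a pseudocount of 1 FPKM, which shrinks low values by construction, and otherwise stayed between -1.68 and -1.59. The 2 filters cannot change a member's ratio, and the 3 scalings shift all genes nearly alike, so these settings say little about single members. Against 3029 lower and 2265 higher genes in all, a pseudocount of 1 FPKM gave 1661 and 965, a threshold of 1 gave 1417 and 910, and the whole interval past 0.5 gave 1311 and 663. A minimum of 1 FPKM gave 1281 higher genes, as fewer were tested. Upper quartile scaling gave 2653 lower and 2712 higher. Of the other listed genes 109 were lower, and 72 with a threshold of 1. The shares of all genes that passed the filter were 19.1% and 8.95%. Since the lists were chosen with earlier results known, these counts are a description only. Depth limits differences between single members, as reads in AD1KO were 55 to 130 per gene.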
